A study of Mus musculus with 6 samples.

Results

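The mitochondrial ribosomal proteins are the nuclear-encoded protein subunits of the ribosome that works inside mitochondria. Their messenger RNAs were compared between hearts of 9-month-old mice that carry 1 targeted allele of Adrbk1, the gene of G protein-coupled receptor kinase 2 (GRK2), written GRK2+/-, and hearts of their wild-type (WT) littermates. Members were all genes with a symbol made of Mrpl (large subunit) or Mrps (small subunit) and a number, with the letter-suffixed Mrps18 genes included, measured by a probe set annotated to that gene alone. Of 18193 named genes on the array 76 met this rule, 47 of the large and 29 of the small subunit, and each gene was read from its brightest probe set over the 6 arrays. RefSeq lists 78 mouse genes with such symbols. Mrpl30 and Mrpl53 shared their probe sets with another gene and were not measured. All animals were on the C57BL/6J background, with the GRK2+/- line (B6.129-Adrbk1tm1Mca/J) backcrossed to it, and each group held 3 hearts with 1 Affymetrix array per heart. The allele is a germline one and not restricted to a cell type, only the excised upper part of the heart was used, and the labels do not give the animals' sex.

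Mitochondrial ribosomes make the small set of proteins that mitochondrial DNA encodes, all of them hydrophobic core subunits of the respiratory chain and ATP synthase. Their RNA parts are transcribed inside mitochondria, while every protein part is imported from the cytosol. Some of the proteins have a bacterial counterpart, and others arose in the mitochondrial lineage. Cardiac muscle depends on oxidative phosphorylation, and inherited defects of several of these proteins, among them MRPL3 and MRPL44, cause cardiomyopathy in humans. The design asks how gene expression in adult hearts differs when 1 Grk2 allele is lost.

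Correlations between arrays over all probe sets lay between 0.994 and 0.997. No probe set is named for Grk2 alone in the annotation used here, so the targeted gene gave no check of the genotypes. Cardiomyocyte markers were abundant in every heart, with a mean log2 level over 10 markers of 13.62 to 13.65 in GRK2+/- and 13.55 to 13.59 in WT hearts, although the atrial light chain Myl7 lay near the bottom of the scale (5.55 to 5.67 in GRK2+/- and 5.49 to 5.51 in WT hearts). Markers of smooth muscle and pericytes (8 of 8 measured) were at 9.59 to 9.81 in GRK2+/- and 9.44 to 9.54 in WT hearts, and endothelial markers (8 of 8) at 9.36 to 9.44 in GRK2+/- and 9.16 to 9.34 in WT hearts. Fibroblast markers (8 of 8) were at 10.003 to 10.163 in GRK2+/- and 9.917 to 10.111 in WT hearts, and leukocyte markers (7 of 8) at 7.69 to 7.74 in GRK2+/- and 7.58 to 7.73 in WT hearts, with overlap in the fibroblast and leukocyte lists. The 3′ minus 5′ log2 difference of control probe sets reflects how intact the labelled RNA was. For the beta-actin controls it amounted to 0.90 to 1.06 in GRK2+/- and 0.73 to 0.80 in WT hearts. For the Gapdh controls it was 0.012 to 0.041 in GRK2+/- and -0.027 to 0.049 in WT hearts, with overlap. For the pyruvate carboxylase controls it was 1.70 to 1.84 in GRK2+/- and 1.69 to 1.78 in WT hearts, also with overlap. The groups did not overlap in the cardiomyocyte, smooth muscle, endothelial and beta-actin measures, and their part in the results below was not tested. The marker measures are means over a list, and single markers differed in direction. Of 10 cardiomyocyte markers 5 were higher and 5 lower in GRK2+/- hearts, with a median log2 difference, GRK2+/- minus WT, of 0.0015. Of the endothelial markers 6 were higher and 2 lower (median 0.097), and of the smooth muscle and pericyte markers 7 and 1 (median 0.23). In whole tissue, fewer cells of a type and less RNA per cell cannot be told apart.

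Most mitochondrial ribosomal protein genes had slightly lower values in GRK2+/- hearts, in both subunits, but no single gene passed the test over all genes. The log2 difference, GRK2+/- minus WT, was below 0 for 62 of the 76 members (81.6%, against 56.5% of all 18193 genes) and above 0 for 14. Its median was -0.051 over the members, a level 3.49% lower in GRK2+/- hearts, and -0.019 over all genes. The range ran from -0.29 for Mrpl50 to 0.12 for Mrpl33, while the standard errors (SE) were between 0.064 and 0.097. In the plot of all 76 differences many points lie within 1 SE of 0, and the lowest in each panel is a gene whose groups did not overlap.

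**Figure D1:**
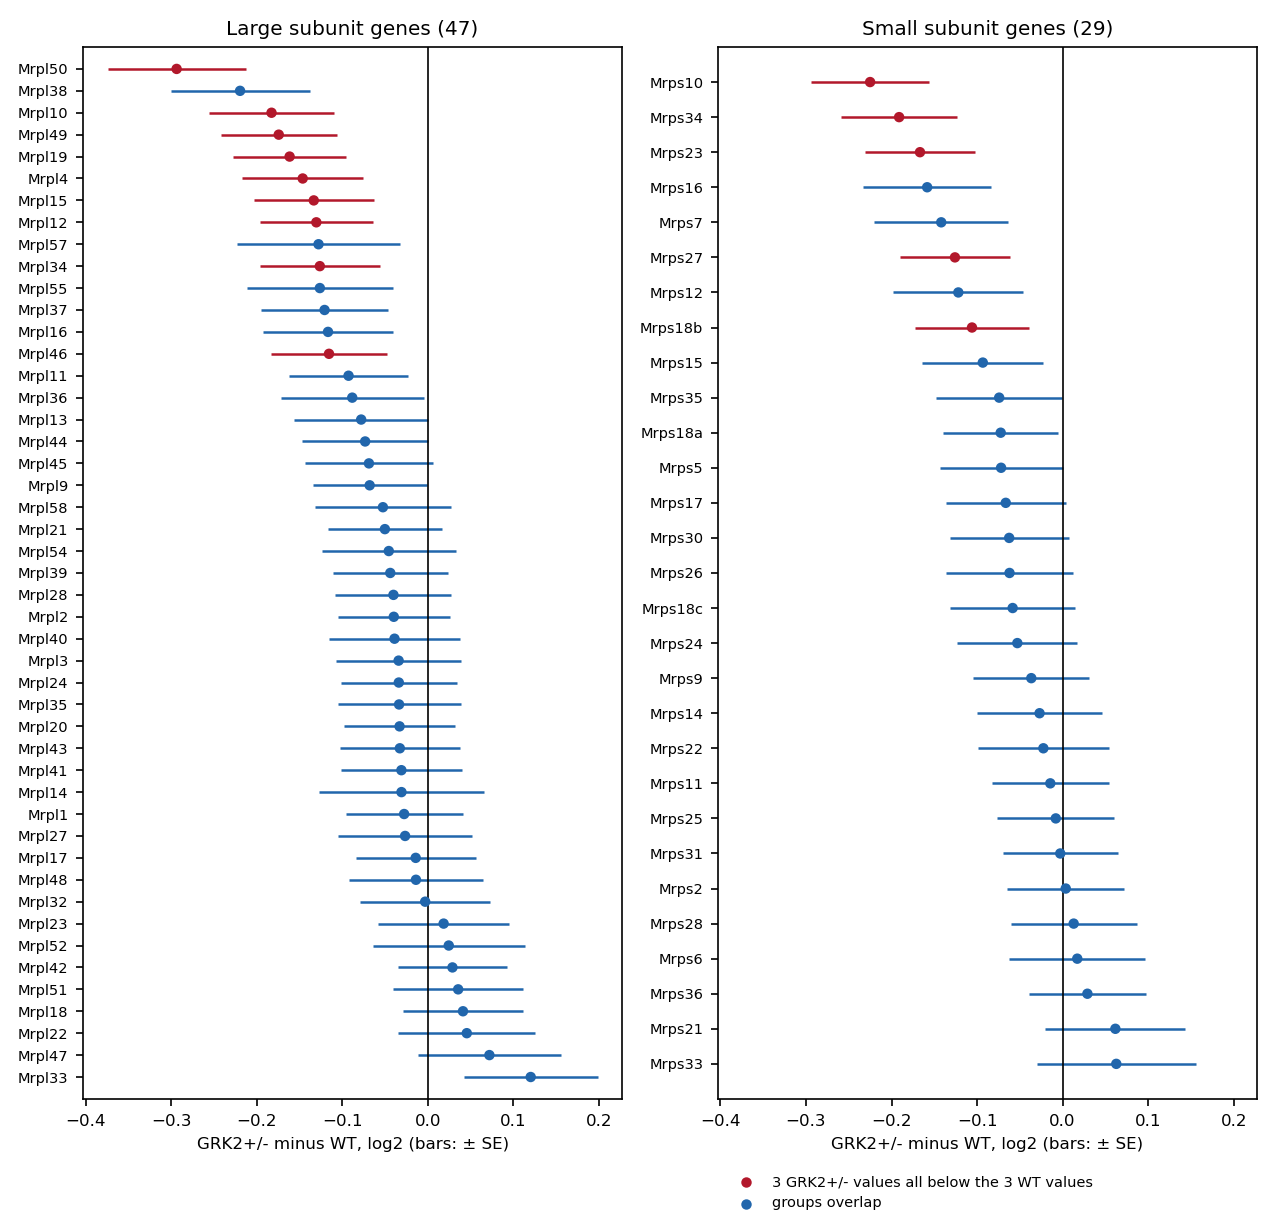
Log2 difference (GRK2+/- minus WT, x axis) of each mitochondrial ribosomal protein gene, with bars of 1 SE (limma, n = 3 hearts per group), for 47 large subunit genes on the left and 29 small subunit genes on the right. Red points mark the 14 genes whose 3 GRK2+/- values all lay below the 3 WT values, and 62 of the 76 points lie left of 0.

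With limma and Benjamini-Hochberg adjustment over all genes, 0 of 76 members had an adjusted p under 0.05 (0% of all genes), and the smallest adjusted p of a member was 0.200. At an unadjusted p under 0.05, 8 members (10.5%) were lower and 0 higher, where 7.7% of all genes were lower and 6.3% higher. The share of members was close to or below that of all genes with centred arrays (3.95% against 4.89%), with the span trend removed (6.58% against 6.54%), and without any 1 heart other than WT heart 2, for example 2.63% against 8.85% without WT heart 1. The members' share was above that of all genes after quantile normalization (14.5% against 7.48%) and with the mean of each gene's probe sets (11.8% against 8.34%). With the most variable probe set it was 15.8% against 8.30%, and with a prior variance tied to mean level 15.8% against 7.57%. The share of 10.5% thus depends on the processing and is not taken as a result about the members. The 3 GRK2+/- values all lay below the 3 WT values for 14 members (18.4%, against 11.6% of all genes) and all above for 0 (7.44% of all genes). Every member had a mean level above 8.6, over the median gene at 7.24, so none was near the bottom of the scale and none was lost to a filter on level. Among the 5042 genes at least as bright as the dimmest member, a comparison chosen after the values had been seen, 45.9% were below 0, 5.59% were lower at an unadjusted p under 0.05 and 10.4% lower without overlap, with a median difference of 0.011.

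The large and small subunits had similar differences. In the large subunit 39 of 47 genes were below 0 (83.0%), with a median of -0.044. There 5 were lower at an unadjusted p under 0.05 (10.6%) and 9 lower without overlap (19.1%). The small subunit had 23 of 29 genes below 0 (79.3%) and a median of -0.062. Of its genes 3 were lower at an unadjusted p under 0.05 (10.3%) and 5 lower without overlap (17.2%). Over all genes the shares were 56.5%, 7.7% and 11.6%. The difference between the medians, large minus small, was 0.018, and it changed sign without WT heart 1 (-0.012). Within each heart, the mean over the large subunit minus the mean over the small subunit, each gene taken relative to its WT mean, was 0.0049, -0.0059 and 0.00095 in GRK2+/- hearts 1, 2 and 3, against -0.020, 0.0099 and 0.010 in WT hearts 1, 2 and 3. These values overlap, and the WT hearts differed from each other by more than the groups did.

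The level of the whole set in each heart was taken next. The mean over all members, relative to WT, was -0.11, -0.048 and -0.027 in GRK2+/- hearts 1, 2 and 3, against 0.0030, -0.048 and 0.045 in WT hearts 1, 2 and 3. GRK2+/- heart 1 was the lowest and WT heart 3 the highest, and WT heart 2 lay at the level of GRK2+/- heart 2, so the groups overlapped. The median difference of the members was -0.023 without GRK2+/- heart 1, -0.033 without WT heart 3 and -0.079 without WT heart 2, against -0.051 with all hearts. With the arrays centred on their own medians it was -0.022, where the median of all genes became 0.010, and it stayed below 0 under all 19 alternatives tried.

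**Figure D2:**
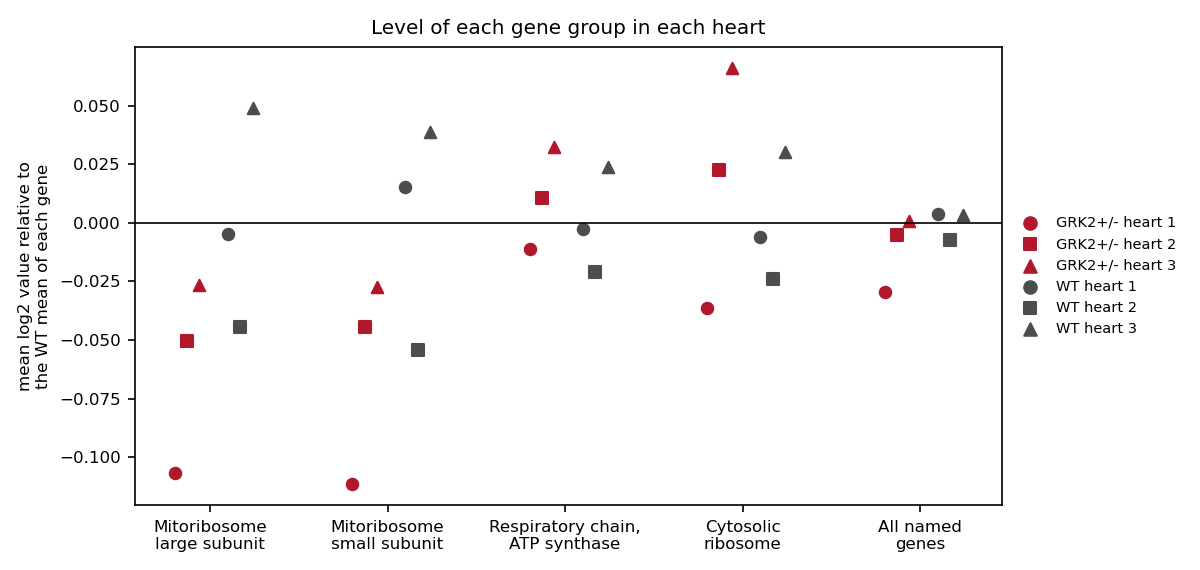
Mean log2 value over each gene group (y axis), each gene taken relative to its WT mean, in every heart, with GRK2+/- hearts in red left of WT hearts in grey. Both mitoribosomal subunits were lowest in GRK2+/- heart 1 (-0.11) and highest in WT heart 3 (0.049 and 0.039), and the groups overlapped.

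The start regions of these genes are shown for members on which the counts rest, to let their letters be read beside the values. RefSeq (build GRCm38.p6) gave windows of 300 bases, 250 before to 50 after the annotated start, for 67 of the 76 members (73 windows). Each was searched on both strands for the motif of nuclear respiratory factor 1 (NRF1) and for CCGGAAGT (GA-binding protein, GABP), ATGGCGGC (YY1) and GGGCGG (SP1), factors known from other genes of mitochondrial proteins. The NRF1 motif stood in 12 of 73 member windows (16.4%, against 4.60% of all 32851 windows), the GABP motif in 12 (16.4%, against 3.89%) and the YY1 motif in 11 (15.1%, against 2.24%). The SP1 motif stood in 39 (53.4%, against 35.7%), and in 0 member windows did motifs of different factors overlap. At least 1 of the first 3 motifs was in 31 windows (42.5%, against 9.89% of all windows). Such a match is a description of the letters and not a binding site. Below are the windows of the large and small subunit members with the smallest p that have one, in lower case with motif matches in capitals. Mrpl50 (chr4:49521034-49521333, minus strand) holds a YY1 match that begins 30 bases after the start. Mrpl49 (chr19:6057706-6058005, minus strand) holds a pair of SP1 matches that begin 110 and 90 bases before the start, and Mrps10 (chr17:47368947-47369246, plus strand) and Mrps23 (chr11:88204138-88204437, plus strand) hold none of the 4 motifs. The annotated span of Mrps10 begins at base 47368887 and that of Mrps23 at base 88194106. Both begin upstream of the printed window, so these windows do not show the outermost start of those genes. The SP1 matches are on the strand opposite to the gene and so read ccgccc in capitals.
Mrpl50: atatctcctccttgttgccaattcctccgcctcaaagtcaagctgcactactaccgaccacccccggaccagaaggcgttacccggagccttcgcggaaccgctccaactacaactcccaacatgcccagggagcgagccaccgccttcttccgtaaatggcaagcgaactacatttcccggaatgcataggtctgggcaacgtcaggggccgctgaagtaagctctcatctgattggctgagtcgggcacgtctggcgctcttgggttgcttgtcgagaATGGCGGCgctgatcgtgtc
Mrpl49: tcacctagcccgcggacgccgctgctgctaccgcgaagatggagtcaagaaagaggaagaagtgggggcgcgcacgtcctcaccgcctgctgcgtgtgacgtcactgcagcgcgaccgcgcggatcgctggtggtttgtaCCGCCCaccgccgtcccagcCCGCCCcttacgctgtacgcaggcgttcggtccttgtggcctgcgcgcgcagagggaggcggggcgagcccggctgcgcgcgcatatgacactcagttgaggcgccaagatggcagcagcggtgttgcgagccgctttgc
Mrps10: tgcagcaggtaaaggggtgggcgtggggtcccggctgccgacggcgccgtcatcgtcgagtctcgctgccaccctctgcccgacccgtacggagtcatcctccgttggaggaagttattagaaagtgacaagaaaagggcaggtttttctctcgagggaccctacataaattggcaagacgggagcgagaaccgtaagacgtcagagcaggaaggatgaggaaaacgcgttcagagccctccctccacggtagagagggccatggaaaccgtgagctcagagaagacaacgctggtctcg
Mrps23: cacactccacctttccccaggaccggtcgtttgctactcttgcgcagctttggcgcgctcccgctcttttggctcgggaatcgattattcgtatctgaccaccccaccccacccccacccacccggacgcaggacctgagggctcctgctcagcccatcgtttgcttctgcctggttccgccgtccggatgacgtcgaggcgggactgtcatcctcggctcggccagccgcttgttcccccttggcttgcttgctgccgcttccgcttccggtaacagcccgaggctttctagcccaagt

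Members with and without a motif were set side by side. The median difference was -0.053 for 12 members with the NRF1 motif and -0.040 for 55 without, -0.024 for 12 with the GABP motif and -0.052 for 55 without, and -0.068 for 11 with the YY1 motif and -0.039 for 56 without. With the SP1 motif it was -0.038 for 34 members, and -0.050 for the 33 without. These medians were not tested against each other, and all of them lay below 0.

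In the large subunit the largest difference belonged to Mrpl50, which has no bacterial counterpart (gene on chromosome 4, 49512597 to 49521083 in GRCm38.p6). Its log2 level was 10.14, 10.02 and 10.11 in GRK2+/- hearts 1, 2 and 3, against 10.39, 10.26 and 10.50 in WT hearts, a difference of -0.29 ± 0.08 (SE, n = 3 per group; limma adjusted p = 0.200). All 3 GRK2+/- hearts were below the lowest WT heart, and the GRK2+/- mean was 18.4% below the WT mean. Its other probe set, at a lower level, differed by 0.04 ± 0.10, so the mean of both was -0.13. Mrpl38, another mitochondria-specific protein, was at 9.59, 9.46 and 9.42 in GRK2+/- and 9.75, 9.59 and 9.79 in WT hearts (-0.22 ± 0.08, limma adjusted p = 0.285). GRK2+/- heart 1 reached the level of WT heart 2, so these groups overlapped. Its 2 other probe sets pointed up, at dimmer levels, and the mean of all 3 was -0.021.

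Mrpl49, also specific to mitochondria, was at 9.33, 9.41 and 9.36 in GRK2+/- and 9.56, 9.47 and 9.59 in WT hearts (-0.17 ± 0.07, limma adjusted p = 0.309). Mrpl10, which with Mrpl12 forms the stalk that engages translation factors, was at 10.05, 10.03 and 10.08 in GRK2+/- and 10.35, 10.14 and 10.22 in WT hearts (-0.18 ± 0.07, limma adjusted p = 0.317). For both genes the GRK2+/- hearts lay close together and below every WT heart. Mrpl12 itself, which in human cells also binds the mitochondrial RNA polymerase, was at 11.29, 11.25 and 11.36 in GRK2+/- and 11.46, 11.43 and 11.41 in WT hearts (-0.13 ± 0.07, limma adjusted p = 0.406). Mrpl11, at the base of the stalk, differed by -0.093 ± 0.069 with overlapping groups. All 3 stalk genes were thus below 0, and none passed the adjusted threshold.

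Mrpl19, with a bacterial counterpart, was at 9.27, 9.28 and 9.32 in GRK2+/- and 9.50, 9.40 and 9.45 in WT hearts (-0.16 ± 0.07, limma adjusted p = 0.323). The values of the groups were apart, but its most variable probe set, which lies near the bottom of the scale, gave -0.0037 and the mean of its 4 probe sets -0.077. Mrpl4, whose bacterial counterpart lines the exit tunnel for the new protein chain, was at 11.22, 11.14 and 11.20 in GRK2+/- and 11.32, 11.26 and 11.42 in WT hearts (-0.15 ± 0.07, limma adjusted p = 0.389). Mrpl15 was at 11.46, 11.36 and 11.49 in GRK2+/- and 11.55, 11.53 and 11.63 in WT hearts (-0.13 ± 0.07, limma adjusted p = 0.419), each GRK2+/- heart below each WT heart. The Mrpl15 probe set is of a type (ending in x_at) that can bind related transcripts. Those of Mrpl38, Mrpl19 and Mrps12 end in s_at, a type that can also match several transcripts. In all, 8 members were read from an s_at or x_at probe set. Of the 8 Mrpl15 probe sets 5 pointed down, among them the 4 brightest, and the mean of all 8 was -0.044.

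**Figure D3:**
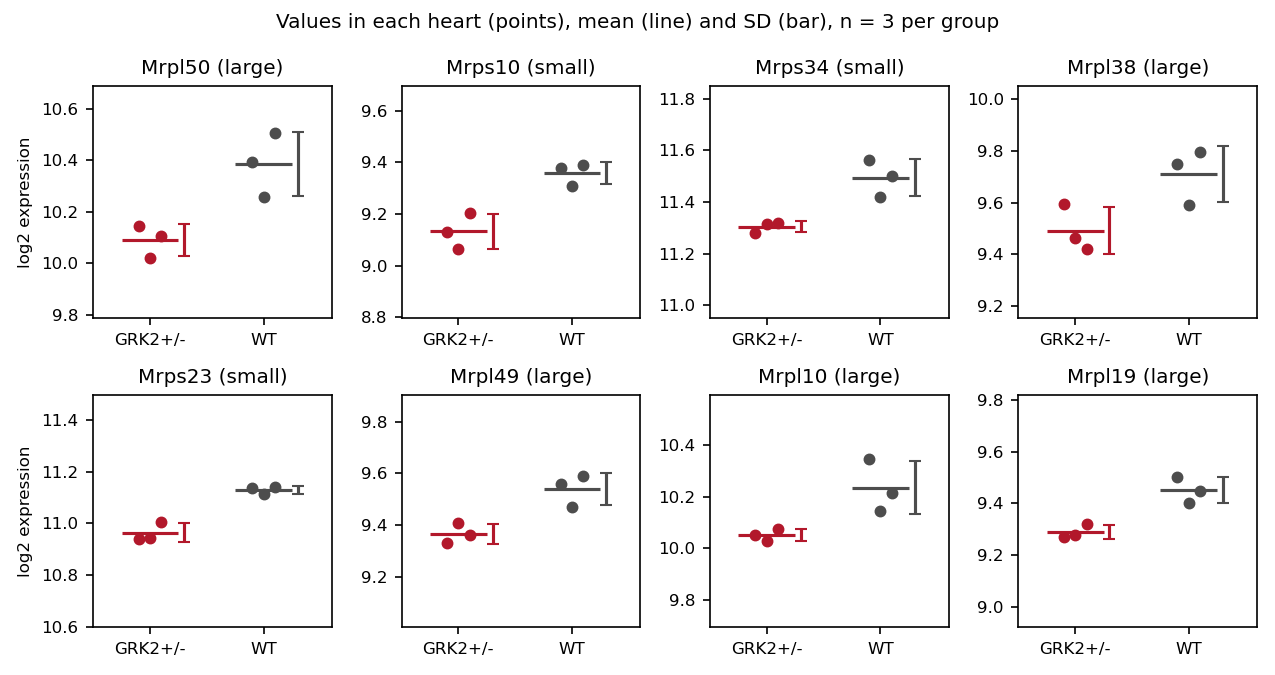
Log2 expression (y axis, each panel spanning the same height) of the 8 members with an unadjusted p under 0.05, as points for the 3 GRK2+/- hearts (red, left) and the 3 WT hearts (grey, right), with the group mean as a line and the SD as a bar. The groups were apart in 7 panels and overlapped for Mrpl38.

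In the small subunit Mrps10, a protein with a bacterial counterpart in the head of the subunit, was at 9.13, 9.07 and 9.20 in GRK2+/- and 9.38, 9.31 and 9.39 in WT hearts (-0.23 ± 0.07, limma adjusted p = 0.230). Every GRK2+/- heart was below every WT heart, while its other probe set, dimmer than the median gene, differed by 0.0039 and brought the mean to -0.11. Mrps34, a mitochondria-specific protein whose loss in humans destabilises the small subunit and causes Leigh syndrome, was at 11.28, 11.31 and 11.32 in GRK2+/- and 11.56, 11.42 and 11.50 in WT hearts (-0.19 ± 0.07, limma adjusted p = 0.274). Its groups did not overlap either. Mrps23, also mitochondria-specific, was at 10.94, 10.94 and 11.01 in GRK2+/- and 11.14, 11.11 and 11.14 in WT hearts (-0.17 ± 0.06, limma adjusted p = 0.303). A second Mrps23 probe set pointed the same way and further, at 10.38, 10.49 and 10.46 in GRK2+/- and 10.69, 10.73 and 10.75 in WT hearts (-0.28 ± 0.07, adjusted p = 0.196 over all probe sets with limma), and both sets had each GRK2+/- heart below each WT heart. The remaining probe set, a dim one, differed by 0.027.

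Mrps16, mutated in a human respiratory chain deficiency, was at 11.07, 11.08 and 11.19 in GRK2+/- and 11.30, 11.17 and 11.34 in WT hearts (-0.16 ± 0.07, limma adjusted p = 0.375), with GRK2+/- heart 3 above WT heart 2. Mrps27, an RNA-binding pentatricopeptide repeat protein, was at 8.86, 8.89 and 8.91 in GRK2+/- and 9.04, 8.99 and 9.00 in WT hearts (-0.13 ± 0.06, limma adjusted p = 0.405) and did not overlap. Mrps7, which binds the head of the small ribosomal RNA, was at 10.26, 10.20 and 10.20 in GRK2+/- and 10.41, 10.22 and 10.45 in WT hearts (-0.14 ± 0.08, limma adjusted p = 0.443). WT heart 2 was again the low one of its group for Mrps16 and Mrps7, as it was for the whole set.

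The 3 Mrps18 paralogs occupy different places in the ribosome: Mrps18b and Mrps18c are part of the small subunit, whereas the Mrps18a protein, in spite of its name, sits in the large one. Mrps18b was at 9.58, 9.67 and 9.60 in GRK2+/- and 9.70, 9.71 and 9.77 in WT hearts (-0.11 ± 0.07, limma adjusted p = 0.492), without overlap. Mrps18a was at 10.66, 10.73 and 10.74 in GRK2+/- and 10.78, 10.73 and 10.84 in WT hearts (-0.072 ± 0.067, limma adjusted p = 0.653), and Mrps18c at 10.35, 10.50 and 10.52 against 10.51, 10.47 and 10.55 (-0.058 ± 0.073, limma adjusted p = 0.746). The 3 paralogs thus pointed the same way, and for Mrps18a and Mrps18c the differences were about as large as their errors. Mrps30, likewise a large subunit protein by structure, differed by -0.062 ± 0.070. Mrps36, now known as a part of the 2-oxoglutarate dehydrogenase complex and not of the ribosome, differed by 0.029 ± 0.068. With Mrps18a and Mrps30 counted in the large subunit and Mrps36 left out, the medians were -0.046 for 49 large and -0.060 for 26 small subunit genes.

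Members above 0 were few and their groups all overlapped. Mrpl33 was the highest at 0.12 ± 0.08, followed by Mrpl47 at 0.072 ± 0.083, Mrps33 at 0.063 ± 0.093 and Mrps21 at 0.062 ± 0.082. The Mrpl33 levels were 10.791, 10.996 and 10.967 in GRK2+/- hearts and 10.794, 10.864 and 10.736 in WT hearts, and its other probe set, near the bottom of the scale, differed by -0.14. Proteins with a bacterial counterpart had a median of -0.040 over 45 genes. Of these 36 were below 0 (80%), 3 lower at an unadjusted p under 0.05 (6.67%) and 7 lower without overlap (15.6%). Mitochondria-specific proteins had a median of -0.057 over 28 genes. Of these 24 were below 0 (85.7%), 5 lower at an unadjusted p under 0.05 (17.9%) and 7 lower without overlap (25%). Over all genes the shares were 56.5%, 7.7% and 11.6%. Mrps18a, Mrps30 and Mrps36 were put in neither class. This split was made after the values had been seen and was not tested.

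Further probe sets of the same genes gave a second reading. Of 156 probe sets for the members, 80 were not used above, and 46 of these were below 0 and 34 above (57.4% of all 45037 probe sets were below 0), with a median of -0.023. At an unadjusted p under 0.05, 9 of the 80 were lower (7.4% of all probe sets) and 0 higher (5.44%). Without overlap 10 were lower, a share close to the 11.2% of all probe sets. Another 3 were higher without overlap (7.44% of all genes in the gene table). Among the 43 that reached the level of the median gene, 27 were below 0, 8 were lower at an unadjusted p under 0.05 and their median was -0.049. Of these 43, 9 were lower and 2 higher without overlap. With limma 0 of the 156 had an adjusted p under 0.05 over all probe sets, and 0% of all probe sets did. Of the 42 members with several probe sets, all pointed one way for 11. Probe sets disagreed most for Mrpl50, Mrpl38, Mrps23 and Mrpl15, as given above.

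Genes of the respiratory chain and ATP synthase and of the cytosolic ribosome did not have such a share of low values. Both lists were brighter than the members, with mean log2 levels in WT hearts of 13.4 and 12.0 against 10.6. What this does to the comparison was not tested. Of 77 genes of the respiratory chain and ATP synthase 28 were below 0 and 49 above, with a median of 0.012, and of 43 cytosolic ribosomal proteins 13 were below 0 and 30 above, with a median of 0.029. At an unadjusted p under 0.05 there were 0 lower and 0 higher respiratory genes, and 1 lower (2.33%) and 0 higher cytosolic ribosomal ones. Over all genes 7.7% were lower and 6.3% higher. Without overlap 4 respiratory genes were lower (5.19%) and 2 higher (2.60%). Of the cytosolic ribosomal genes 1 was lower (2.33%) and 2 higher (4.65%) without overlap, against 11.6% and 7.44% of all genes. Within each heart, the mean over mitochondrial ribosomal genes minus the mean over respiratory genes was -0.097, -0.059 and -0.059 in GRK2+/- hearts 1, 2 and 3, against 0.0056, -0.027 and 0.021 in WT hearts. Set against cytosolic ribosomal genes it was -0.072, -0.071 and -0.093 in GRK2+/- and 0.0093, -0.024 and 0.015 in WT hearts. Set against all named genes it was -0.079, -0.043 and -0.028 in GRK2+/- and -0.00088, -0.041 and 0.042 in WT hearts. Set against the 5042 genes at least as bright as the dimmest member, it was -0.095, -0.084 and -0.062 in GRK2+/- hearts. In WT hearts it was -0.036, -0.014 and 0.051, and this comparison was chosen after the values had been seen. The differences against respiratory, cytosolic ribosomal and these bright genes separated the groups. The groups overlapped in the one against all genes and in the level of the mitochondrial ribosomal genes alone. None of these was tested.

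**Figure D4:**
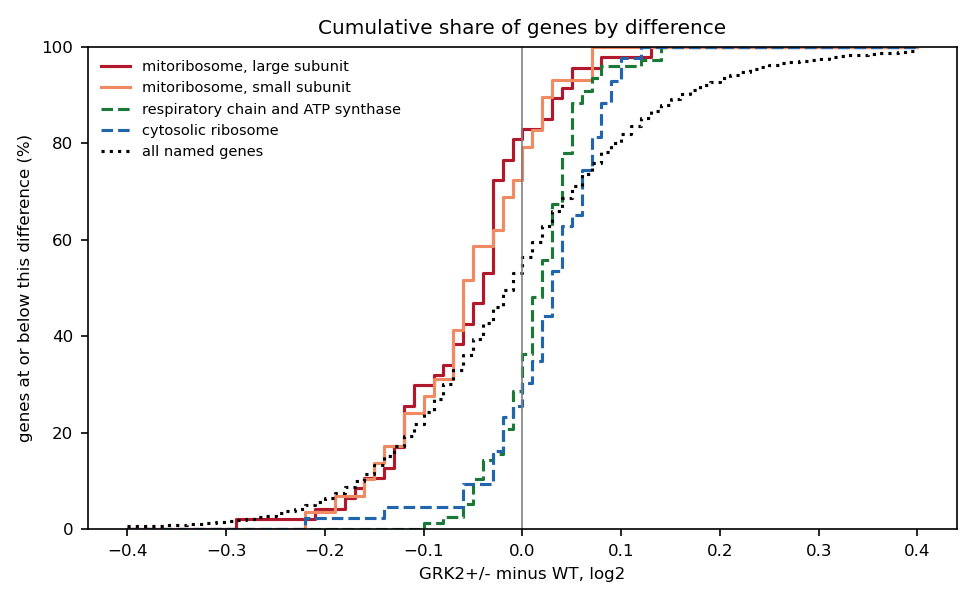
Share of genes (y axis, %) with a log2 difference, GRK2+/- minus WT, at or below the value on the x axis, for 47 large and 29 small subunit mitoribosomal genes (solid), 77 respiratory chain and ATP synthase genes and 43 cytosolic ribosomal protein genes (dashed) and all 18193 named genes (dotted). At 0 the mitoribosomal lines stand at 83.0% and 79.3%, the respiratory line at 36.4% and the cytosolic ribosomal line at 30.2%.

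Gene span and the members' differences were set side by side since differences varied with span over all genes. With all genes in 5 equal groups by genomic span, the median difference was -0.038 in the group with the shortest span and 0.016 in the group with the longest, and the members are short, with a median span of 7.69 kb against 20.2 kb for all genes. In the shortest group lay 32 members, with a median of -0.064. In the next lay 27, with a median of -0.034 where all genes had -0.035. The third group held 11 members, with a median of -0.069 where all genes had -0.022. The fourth held 4, at -0.021 where all genes had -0.0059, and the longest 2, at -0.056 where all genes had 0.016. With the span trend removed, the median of the members was -0.025, with 53 of 76 below 0 and 5 lower at an unadjusted p under 0.05. Of all genes in that fit, 51.8% were below 0 and 6.54% lower at an unadjusted p under 0.05, with a median of -0.0048.

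Members often share a start region with a second gene. A start of another gene on the other strand lay within 1000 bases upstream for 25 of the 67 members with a start in the promoter table (37.3%, against 12.2% of 27025 genes). Among 23 such partners that were measured and not members, 14 were below 0, 2 lower at an unadjusted p under 0.05 and 0 higher, close to the shares of all genes (56.5% below 0, 7.7% lower and 6.3% higher). One of those partners is Sars2, the mitochondrial seryl-tRNA synthetase, whose start is 147 bases from that of Mrps12, a protein of the decoding centre. Sars2 was at 7.90, 7.62 and 7.77 in GRK2+/- and 8.03, 8.13 and 8.11 in WT hearts (-0.33 ± 0.08, limma adjusted p = 0.179), without overlap, while Mrps12 differed by -0.12 ± 0.08 with overlapping groups. Mrpl46 and Mrps11 are members that face each other 42 bases apart, and they differed by -0.12 ± 0.07 and -0.014 ± 0.068. Their shared regions, picked after the values had been seen, follow with motif matches in capitals. Mrps12 (chr7:28741772-28742071, minus strand) and Mrpl46 (chr7:78783040-78783339, minus strand) each hold 1 SP1 match, 131 and 31 bases before the start.
Mrps12: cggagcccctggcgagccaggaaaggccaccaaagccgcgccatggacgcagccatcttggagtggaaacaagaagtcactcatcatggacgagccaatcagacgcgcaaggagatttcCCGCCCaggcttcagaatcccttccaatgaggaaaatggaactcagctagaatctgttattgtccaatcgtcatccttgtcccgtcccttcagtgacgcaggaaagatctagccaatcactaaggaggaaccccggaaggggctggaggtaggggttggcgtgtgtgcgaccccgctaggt
Mrpl46: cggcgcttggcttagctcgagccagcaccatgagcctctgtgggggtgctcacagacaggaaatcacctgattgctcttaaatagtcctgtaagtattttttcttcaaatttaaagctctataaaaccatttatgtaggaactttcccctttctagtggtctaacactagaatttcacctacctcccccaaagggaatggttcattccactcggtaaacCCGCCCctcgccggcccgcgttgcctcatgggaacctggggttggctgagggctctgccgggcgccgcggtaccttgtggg

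Other genes of mitochondrial translation were below 0 in 8 of 12 translation factors, 14 of 21 aminoacyl-tRNA synthetases, 20 of 29 assembly factors and 15 of 22 genes of mitochondrial RNA, and none passed the adjusted threshold with limma. These are shares of 66.7%, 66.7%, 69.0% and 68.2%, against 56.5% of all genes. The counts at an unadjusted p under 0.05 given below are of few genes each and stand beside 7.7% lower and 6.3% higher among all genes, for example 9.52% lower and 0 higher among the synthetases. By the means over each list, GRK2+/- and WT hearts overlapped except for the synthetases. Of 4 measured ribosomal proteins that carry other symbols, 0 were lower or higher at an unadjusted p under 0.05. Gadd45gip1 differed by -0.15 ± 0.09, Ptcd3 by -0.026 ± 0.065 and Chchd1 by 0.016 ± 0.076. Among 12 translation factors with a median of -0.10, 2 were lower and 1 higher at an unadjusted p under 0.05. They were the elongation factor Tsfm (-0.21 ± 0.08) and the ribosome recycling factor Gfm2 (-0.17 ± 0.07) on the lower side and the elongation factor Guf1 (0.20 ± 0.08), near the bottom of the scale, on the higher. Means over the probe sets of these genes were -0.10, -0.015 and 0.043. Among 21 aminoacyl-tRNA synthetases with a median of -0.064, Sars2 and the glutamyl-tRNA synthetase Ears2 (-0.20 ± 0.07) were the 2 lower at an unadjusted p under 0.05, 0 were higher, and the tryptophanyl-tRNA synthetase Wars2 differed by -0.16 ± 0.07.

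Assembly and ribosomal RNA modification factors had a median of -0.054 over 29 genes, with 1 lower and 1 higher at an unadjusted p under 0.05. The small subunit assembly factor Mettl17 differed by -0.24 ± 0.08, with 3 of 3 probe sets in that direction, and the ribosomal RNA methyltransferase Mrm1 by 0.22 ± 0.09. The GTPase Gtpbp10 differed by -0.15 ± 0.07, and the mean of its probe sets was 0.036. Genes that make and process mitochondrial RNA had a median of -0.041 over 22 genes, with 2 lower and 0 higher: the helicase Supv3l1 (-0.17 ± 0.07) and the RNase P nuclease Prorp (-0.20 ± 0.09). Tfb2m, a mitochondrial transcription factor, differed by -0.14 ± 0.08.

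Regulators known to act on nuclear genes of mitochondrial proteins were above 0 in 8 of 11 genes, with a median of 0.15. Below 0 were 27.3% of them, against 56.5% of all genes. At an unadjusted p under 0.05, 3 were higher (27.3%, against 6.3% of all genes) and 0 lower (7.7% of all genes). The coactivator Ppargc1b was at 10.81, 10.97 and 11.21 in GRK2+/- and 10.27, 10.18 and 10.02 in WT hearts (0.84 ± 0.11, limma adjusted p = 0.0632). Sp1, whose motif is described above, was at 9.64, 9.92 and 9.83 in GRK2+/- and 9.32, 9.39 and 9.23 in WT hearts (0.49 ± 0.09, limma adjusted p = 0.0961), and its 3 probe sets pointed the same way with a mean of 0.28. The related coactivator Pprc1 differed by 0.30 ± 0.09. For all 3 each GRK2+/- heart was above each WT heart. Of the 11 regulators 4 were higher without overlap (36.4%, against 7.44% of all genes) and 1 lower without overlap (9.09%, against 11.6%). Nrf1 and Gabpa differed by -0.079 ± 0.106 and 0.12 ± 0.07, and Yy1 by 0.21 ± 0.10. For the coactivator Ppargc1a 3 of 5 probe sets had the direction of the brightest, with a mean over all of 0.051. For Creb1 2 of 6 did, with a mean of 0.011.

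**Figure D5:**
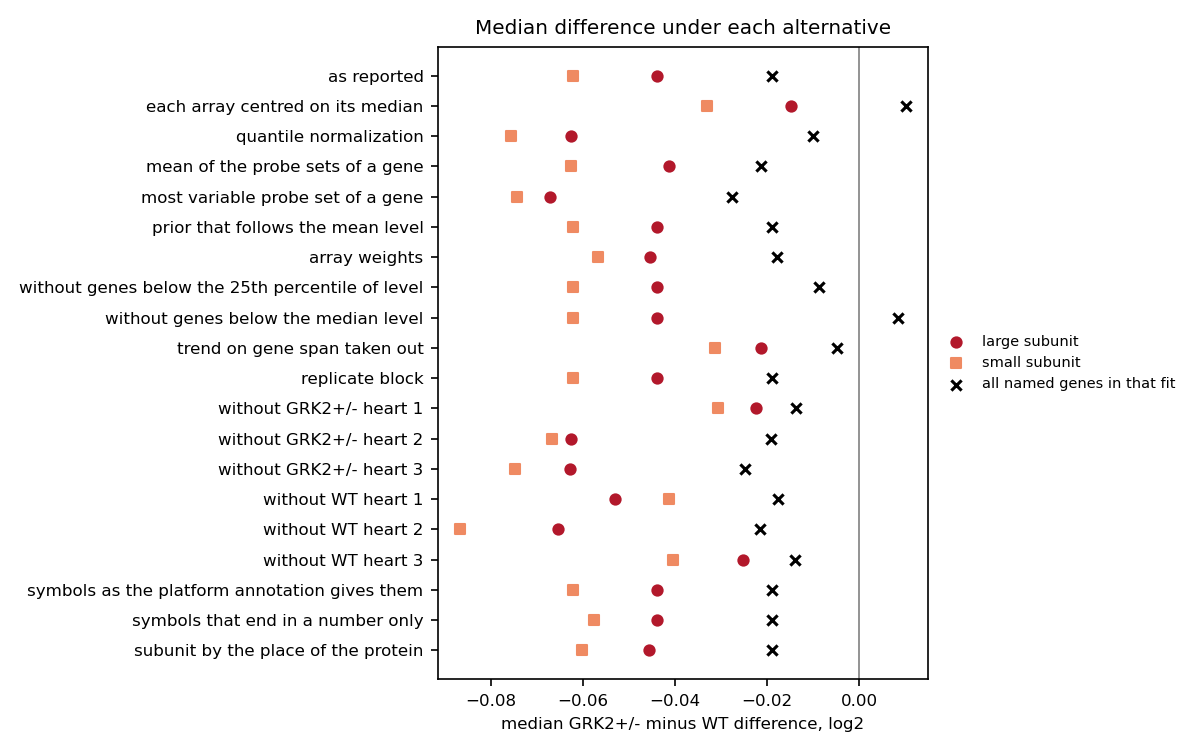
Median log2 difference, GRK2+/- minus WT (x axis), of large subunit genes (circles), small subunit genes (squares) and all named genes in that fit (crosses), as reported and under each of 19 alternatives (rows). Both subunits stay left of 0 in every row, nearest to it at -0.015 for the large subunit with centred arrays and at -0.031 for the small subunit without GRK2+/- heart 1, and the small subunit lies left of the large one except without WT heart 1.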

How the data were processed

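RNA from 3 GRK2+/- and 3 WT hearts was hybridised to 1 Affymetrix array each, per the labels' protocols. The authors deposited log2 values, and the submitters' processing notes name RMA and limma without versions. Joint normalisation of all arrays is not stated. RMA values are relative probe brightness and do not rank genes by transcript number. From 45101 probe sets 64 controls were left out, and 34945 of the 45037 tested had 1 gene symbol, updated through the Entrez identifier with RefSeq (GRCm38.p6) for 34741, which gave 18193 genes. Differences, SE and Benjamini-Hochberg adjusted p are two-sided results of lmFit and eBayes without covariates in limma 3.58.1 under R 4.3.3. Nothing says whether hearts came from separate litters, and p-values measure only the spread between these hearts. The number of arrays limits the precision, and an exact permutation test of 3 against 3 hearts could not give a two-sided p below 0.1. The steps were tested on simulated data. The members, lists and tests were chosen with earlier results of these data known. Named were the 8 large and 6 small subunit genes with the smallest p, members with an unadjusted p under 0.05, the Mrps18 paralogs, Mrps30, Mrps36, the 4 members with the largest disagreement between probe sets, the highest members above 0, and the 3 genes with the smallest p of each further list. The highest members, Mrpl11, Mrps12, Mrpl46 and further regulators were added after their values had been seen. Protein sequences are not shown.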

Additional observations from a re-analysis of the deposited data

How the results depend on the processing

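The median of all members stayed below 0 under all 19 alternatives, between -0.071 and -0.022 for other processing and between -0.079 and -0.023 when 1 heart was left out. No member passed the adjusted threshold in any of them, and none of 361 differences of the 19 named members changed sign. In place of 8, the members lower at an unadjusted p under 0.05 numbered 3 with centred arrays (3.95%, against 4.89% of all genes), 5 with the span trend removed (6.58% against 6.54%), 5 with the replicate number as a block (6.58% against 6.83%), and 2 to 12 when 1 heart was left out (2.63% to 15.8%, against 4.96% to 8.85%), where 0 to 1 were higher. Of the leave-one-out fits only that without WT heart 2 had a larger share of members than of all genes (15.8% against 6.81%). After quantile normalization 11 members were lower at that threshold (14.5% against 7.48%), and with the mean of each gene's probe sets 9 (11.8% against 8.34%). With the most variable probe set 12 were lower (15.8% against 8.30%), and with a prior variance tied to mean level 12 (15.8% against 7.57%). Members lower without overlap numbered 10 with centred arrays (13.2%, against 7.69% of all genes), in place of 14. They numbered 12 with the span trend removed (15.8% against 9.67%) and 17 with the mean of each gene's probe sets (22.4% against 12.3%). With the most variable probe set they numbered 18 (23.7% against 12.95%), and after quantile normalization 24 (31.6% against 11.1%). Without 1 heart they numbered 14 to 30 (18.4% to 39.5%), but 15.2% to 20.5% of all genes were then lower without overlap, so these counts cannot be read against 14. The large minus small difference of medians was -0.012 to 0.021 without 1 heart, with the opposite sign only without WT heart 1 (-0.012). Over all genes the count past the adjusted threshold, 0 as reported, was 12 with the most variable probe set, 49 with a prior variance tied to mean level, 12 with array weights, 6 without genes below the median level, 1 with the replicate block and 0 to 56 without 1 heart. Over probe sets it was 28 with that prior and 0 to 41 without 1 heart. The replicate numbers did not pair the hearts: deviations of same-numbered hearts correlated at -0.18, -0.0051 and 0.016, and 0 of 6 hearts correlated best with its own number. The cause of these changes was not tested.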
